A study of Drosophila melanogaster with 2 samples.

Results

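The step compared here lies between clusters 4 and 5 of an ordered series of single embryos, where the major wave of zygotic transcription begins. The 84 embryos of the deposited normalized table stand in pseudo-time order, which ranks single embryos by how far their transcriptome has progressed. Columns 47 to 49 hold the 3 embryos of cluster 4 and columns 50 to 58 the 9 embryos of cluster 5, so that 12 of the 84 embryos entered the comparison. All were wild-type *Drosophila melanogaster* of the inbred line DGRP-737, kept at 25 °C, untreated, each homogenized alone and profiled by a modified CEL-Seq2 protocol that counts polyadenylated RNA molecules through unique molecular identifiers (UMIs). Cluster membership was itself assigned from the transcriptomes, so the p-values below compare groups that expression had already separated.

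Before this step a fly embryo runs on RNA that the mother loaded into the egg. It divides its nuclei in a common cytoplasm in rapid cycles without gap phases, and then pauses to build cell membranes between them, a process called cellularization. Over the same period most maternal RNAs are destroyed, and the zygote's own genome is switched on in a minor and then a major wave that sets up the anterior-posterior and dorsal-ventral body plan.

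All 3 embryos of cluster 4 were collected at 1-2 h, 8 of the 9 of cluster 5 at 2-3 h and the other 1 at 0-1 h, so that cluster and collection interval cannot be told apart. By DNA genotype, cluster 4 held 2 females and 1 male and cluster 5 held 3 females and 6 males. Cluster 4 held 2 embryos of cage A and 1 of cage B, cluster 5 held 4 and 5. Depth was 382923 to 946117 UMIs per embryo in cluster 4 and 305759 to 2105275 in cluster 5. The UMI totals of 2 embryos of cluster 4 and 5 of cluster 5 equalled the total of a barcode in the first library, those of the other 4 of cluster 5 a barcode in the second, and that of the third embryo of cluster 4 no single barcode. The part of library in the differences was not tested.

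Of 7619 genes tested, 334 rose and 1190 fell from cluster 4 to cluster 5 (edgeR quasi-likelihood test, Benjamini-Hochberg adjusted p below 0.01 and more than a 2-fold change), which is 4.38% and 15.6% of the genes. In 228 of the genes that rose and 904 of those that fell, no embryo of one cluster overlapped with the other, 2.99% and 11.9% of all genes. DESeq2 called 260 genes higher (3.41%) and 1273 lower (16.7%). Among all genes tested, 7.31% had every embryo of cluster 5 above cluster 4 and 16.2% every embryo below. The genes that rose included many zygotic patterning regulators, and those that fell included maternal RNAs of the germ plasm, the cell cycle and translational control. The median log2 fold change over all genes was 0.04 with TMM scaling and -0.06 with library totals, a shift of 0.10, and 241 genes rose and 1301 fell on library totals. Values are shares of the RNA of an embryo, and in whole embryos fewer cells of a type cannot be told apart from less RNA per cell.

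**Figure D1:**
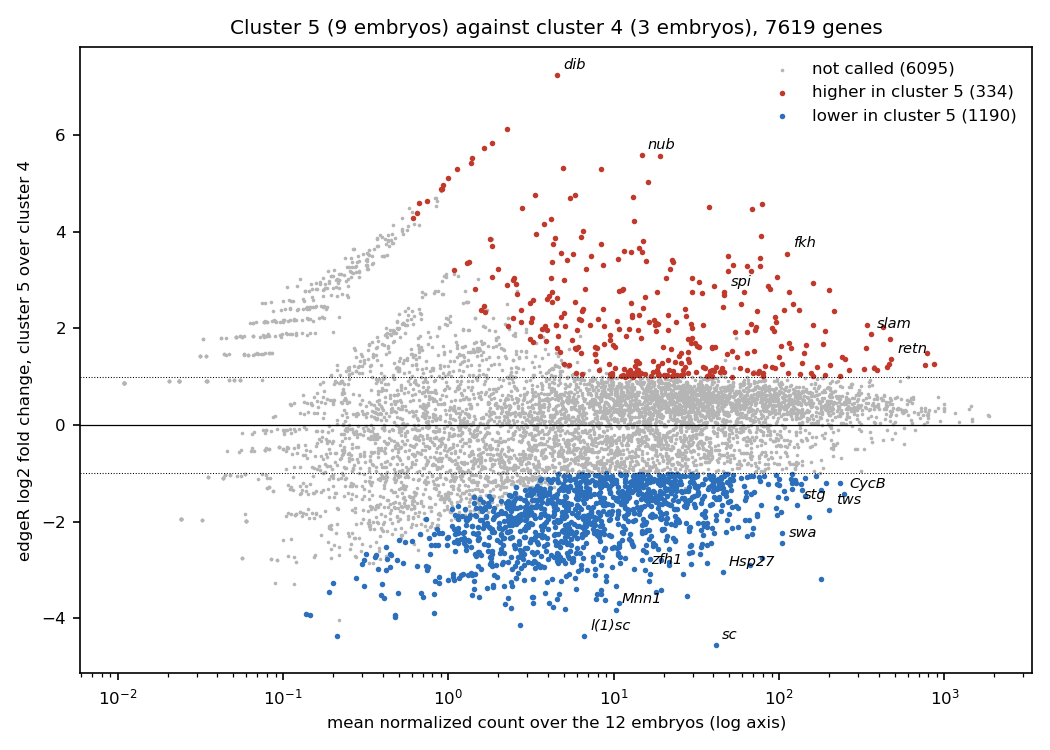
Each of 7619 genes by its mean normalized count over the 12 embryos (log axis) and its edgeR log2 fold change of cluster 5 over cluster 4, with 334 genes called higher in red, 1190 called lower in blue and the threshold of 1 on the log2 scale dotted. Genes that fell outnumber genes that rose at most levels, while the largest changes upward belong to genes near 0 in cluster 4, such as *dib*.

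Expression is given below as the normalized count, the UMIs of a gene per 274491 UMIs of its embryo, with the 3 embryos of cluster 4 in pseudo-time order. The third of them, the closest to cluster 5, had the highest of the 3 values in 57.5% of the genes that rose and the lowest in 87.1% of the genes that fell, against 24.6% and 51.1% of all genes tested. The order of the embryos was itself derived from expression. The third embryo also had the fewest UMIs of the 3, 382923 against 946117 and 707332, and was the only one from cage B. The part of depth and cage in these shares was not tested.

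Most gap and pair-rule genes of the segmentation cascade rose. This cascade divides the embryo along its length, from gap genes that respond to maternal gradients, through pair-rule genes expressed in stripes, to segment polarity genes that fix the borders of segments. Of 12 gap and terminal genes tested 10 rose (83.3%), and of 14 pair-rule genes also 10 (71.4%), against 4.38% of all genes. None fell, against 15.6% of all genes. Their median log2 fold changes were 1.65 and 2.01 against 0.04 over all genes. Head patterning genes rose in 8 of 16 cases (50%) and segment polarity genes in 4 of 13 (30.8%), again with none lower. In the order named, 4, 1, 0 and 5 genes of these lists averaged more than 1 normalized count in the 10 earliest embryos. Of all 1323 genes at or below that level, 166 rose and 14 fell. The shares of all genes are therefore a loose standard for lists made mostly of such genes, here and below. Without the first embryo of cluster 4, 9 gap and terminal, 7 pair-rule, 6 head patterning and 3 segment polarity genes rose. Without the third these counts were 10, 10, 9 and 6, and 1 gap and terminal gene fell.

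*nub*, which encodes a POU-domain transcription factor (2L, 12587625 to 12628135, plus strand), was nearly off before and well expressed after. It stood at 0.29, 0 and 1.43 in cluster 4 and between 8.25 and 29.3 in cluster 5, with a median of 20.47. The 3 UMIs of *nub* in cluster 4 against 539 in cluster 5 gave a ratio of 50.9 per UMI sequenced (95% interval from counting error 17.3 to 248; adjusted p = 1.06e-07, edgeR). *opa*, a zinc-finger pair-rule factor (3R, 4852813 to 4869979, plus strand), went from 0.58, 0 and 1.43 to between 4.54 and 46.3 with a median of 22.9. Neither gene had an embryo of one cluster within the range of the other. In the head, the homeobox gene *ems* went from 2.03, 3.88 and 5.02 to between 14.9 and 45.00 without overlap, and *disco*, *hbn* and *croc* rose by 3.302, 2.81 and 2.78 on the log2 scale. *dan*, which encodes a nuclear protein of the developing head, and its neighbour *danr* had 2 UMIs each over the whole of cluster 4 and rose to medians of 9.88 and 3.78. *ci*, the transcription factor at the end of the Hedgehog pathway (chromosome 4, 47710 to 57041, minus strand), had 1 UMI in cluster 4 and between 2.41 and 15.1 normalized counts in cluster 5.

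Several pair-rule genes already present in cluster 4 multiplied. *h*, a repressor expressed in stripes (3L, 8675759 to 8679253, plus strand), was counted at 5.51, 16.7 and 12.2 before and at 68.9 to 128 after, with a median of 103.3. It rose on average from 11.5 to 98.5 normalized counts (edgeR adjusted p = 1.64e-08). For *odd*, another zinc-finger repressor, values of 7.25, 1.94 and 10.8 were followed by 32.7 to 89.3 with a median of 66.4 (log2 fold change 3.49 ± 0.37). *prd*, *eve* and *ftz* rose by 2.80, 1.85 and 2.04 on the log2 scale and stayed scarcer, with medians of 13.5, 14.4 and 11.3 in cluster 5. *slp1*, *slp2*, *bowl* and *Blimp-1* completed the 10, and of these only *Blimp-1* overlapped between the clusters. *Blimp-1* and *slp2* were scarce before, with 2 and 4 UMIs in all of cluster 4. The ratio of *Blimp-1* was 16.3 per UMI sequenced (95% interval from counting error 4.41 to 136).

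The gap and terminal genes *Kr*, *kni*, *gt*, *tll* and *hkb* were already expressed in cluster 4. *Kr* moved from 32.8, 37.6 and 63.1 to between 79.2 and 153, a log2 fold change of 1.63 ± 0.22. *kni* rose by 1.603, *gt* by 1.07, *tll* by 1.13 and *hkb* by 1.66 on the log2 scale, and of these only *hkb* overlapped between clusters. The gut primordium factor *fkh* (3R, 28580976 to 28585264, minus strand) changed more, from 5.80, 5.43 and 35.8 to between 90.2 and 196 with a median of 135, by 3.55 ± 0.43. *byn*, the hindgut T-box factor, rose by 2.65, and *knrl* and *pdm2*, the close relatives of *kni* and *nub*, by 3.75 and 3.40. *knrl* had 6 UMIs and *pdm2* 15 in all of cluster 4, and *knrl* overlapped between the clusters.

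The 4 segment polarity genes that rose were *ptc*, *smo*, *ci* and *pan*, and the other 9 were not called. *ptc*, the Hedgehog receptor (2R, 8649649 to 8665223, plus strand), was at 3.48, 12.0 and 17.2 in cluster 4 and at 44.6 to 140 in cluster 5, a log2 fold change of 3.46 ± 0.44, and the signal transducer *smo* rose by 1.40. *pan*, the transcription factor of the Wingless pathway, rose by 1.97 with overlap. The ligand *wg* was at 7.04 against values of 5.22, 5.05 and 4.30 (log2 fold change 0.61 ± 0.34, adjusted p = 0.156), and *en* at a median of 0.42 (1.99 ± 1.08, adjusted p = 0.137), so neither was called. Of 11 homeotic genes and cofactors 2 rose (18.2%, against 4.38% of all genes), namely *hth* and *salm*, and no Hox gene was called. *hth*, a Hox cofactor, climbed from 9.86, 25.6 and 91.8 to between 122 and 476. *salm*, a zinc-finger factor of head and tail, climbed from 1.16, 2.72 and 13.6 to between 40.04 and 155, by 4.46 ± 0.53. *Antp* was at 0.29, 0.39 and 1.43 in cluster 4 and at a median of 1.97 in cluster 5 (2.02 ± 0.62, adjusted p = 0.0109), just short of the threshold.

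**Figure D2:**
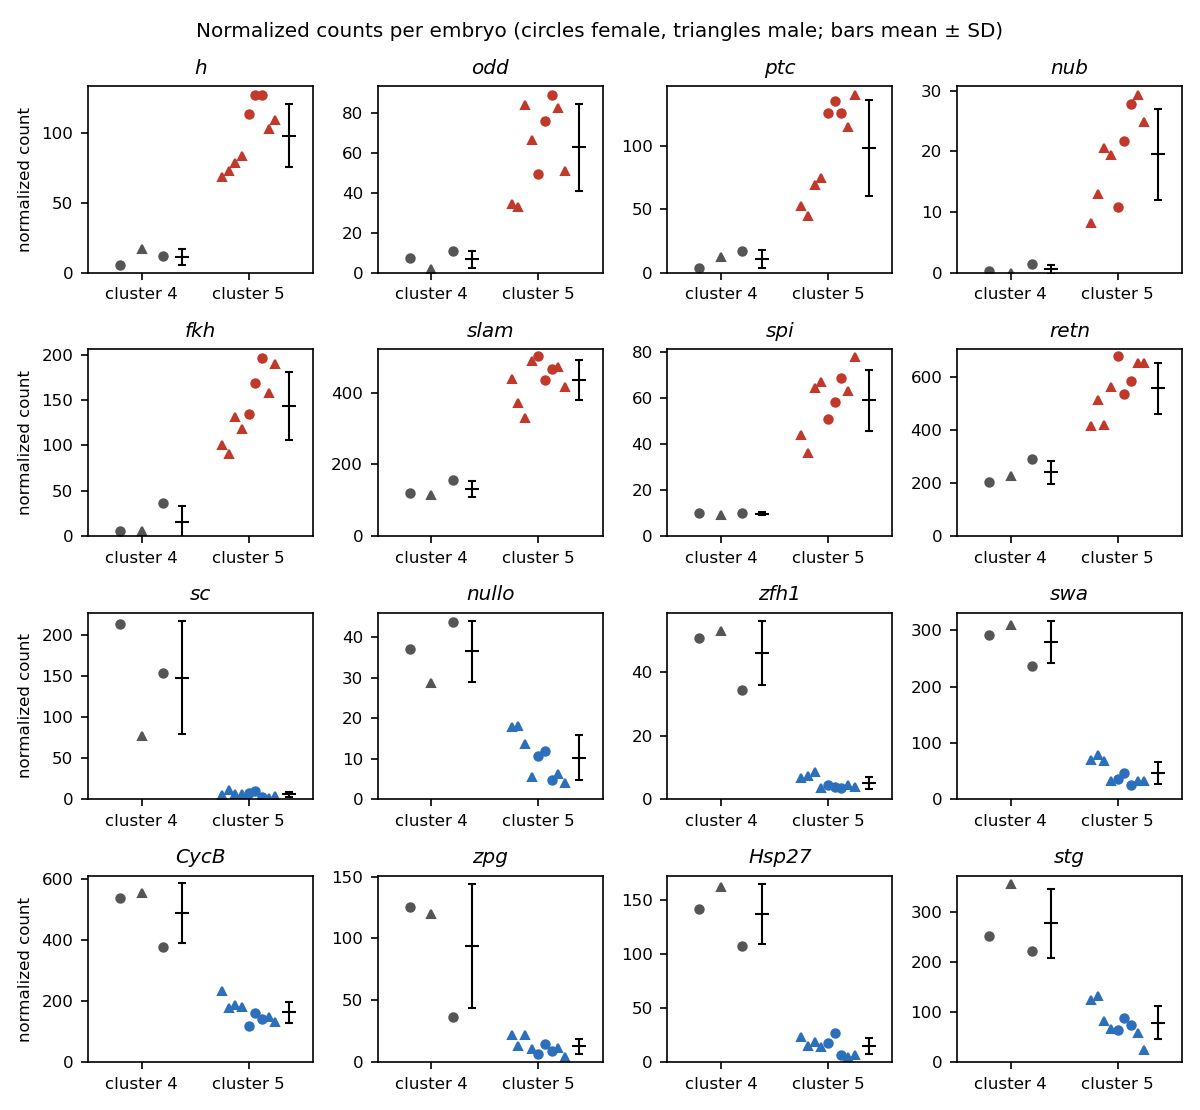
Normalized counts of 16 genes in each of the 12 embryos, cluster 4 in grey and cluster 5 in red for genes that rose and blue for genes that fell, each cluster in pseudo-time order, with black bars for the mean and SD. For *h*, *nub*, *spi*, *sc*, *swa* and the other genes drawn, every embryo of cluster 5 lies to one side of all 3 embryos of cluster 4.

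Along the dorsal-ventral axis the changes were broad but not uniform. Dorsal ectoderm and BMP genes rose in 14 of 30 cases (46.7%, against 4.38% of all genes) and fell in 3 (10%, against 15.6%). Their median log2 fold change was 1.22. Among the ligands, *dpp*, the main BMP of the embryo, rose from 17.99, 22.1 and 17.9 to between 40.6 and 107 (1.92 ± 0.25), and *gbb* from 4 UMIs in all of cluster 4 to a median of 5.24. The BMP ligand *scw*, which acts with *dpp* in the early embryo, went the other way, from 106, 93.9 and 81.0 to between 18.8 and 54.5 (-1.13 ± 0.20). The antagonist *sog*, the metalloproteases *tld* and *tok* and the modulator *cv-2* rose by 1.94, 1.29, 3.66 and 1.14, *tok* and *cv-2* with overlap. The nuclear factors *shn* and *brk* rose by 1.15 and 1.63, *brk* with overlap. Of these genes, *sog* and *brk* are X-linked. In cluster 5 *sog* was at 159 to 181 in females and at 64.85 to 115 in males. *brk* averaged 53.6 in those females and 29.95 in those males. The folds of *sog* and *brk* therefore depend in part on the sex mix of the clusters. The receptor *tkv* fell by 1.02, and the inhibitory Smad *Dad*, which is outside the list and named for the size of its fall, went from 2.61, 1.94 and 0.72 to at most 0.28. Ligands of 1 pathway thus moved in different directions. *tkv* and *Dad* were already present in the 10 earliest embryos, at means of 18.1 and 2.83. *dpp*, *sog*, *tld* and *scw* averaged 0.13, 0.28, 0.16 and 0.09 there. The part of maternal RNA loss in the falls of *tkv* and *Dad* was not tested. Among amnioserosa and dorsal regulators *Doc1*, *Doc3*, *tup*, *srp* and *egr* rose and *zen2* fell, while *zen* changed by 0.67 ± 0.19, below the fold threshold.

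In the ventral and lateral regions, 4 of 16 mesoderm genes rose (25%) and 2 fell (12.5%). Of 13 neuroectoderm and midline genes 6 rose (46.2%) and 0 fell. Over all genes 4.38% rose and 15.6% fell. *twi*, the mesoderm-determining bHLH factor, went from 38.01, 33.8 and 87.4 to between 136 and 248 (2.07 ± 0.27), and *sna* from 23.2, 16.3 and 32.3 to between 44.0 and 74.3 (1.54 ± 0.21). Fitted with sex as a covariate, 7 mesoderm genes rose. The later mesoderm factors *zfh1* and *Mef2* fell. *zfh1* was at 50.8, 52.8 and 34.4 and then at 3.37 to 8.47 (-2.996 ± 0.215), and was already present in the youngest embryos at a mean of 50.3 in cluster 1. It stood at 142 in the last cluster, 9. In the neuroectoderm the homeobox gene *vnd* and the Sox factors *SoxN* and *D* rose by 2.397, 2.07 and 1.37, and *mira* and *pros*, later partitioned in dividing neuroblasts, rose by 2.74 and 3.04.

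Proneural genes fell in 4 of 8 cases (50%, against 15.6% of all genes) and rose in none, with a median of -2.83. *sc*, an X-linked bHLH gene that also serves as a signal of X chromosome number in sex determination (X, 396060 to 397497, plus strand), was at 214, 77.2 and 153 in cluster 4 and between 1.67 and 10.7 in cluster 5. The log2 fold change was -4.55 ± 0.29 (adjusted p = 3.62e-10), the largest fall among genes whose embryos did not overlap. Its neighbours in the achaete-scute complex fell with it. *l(1)sc* went from 49.3, 9.31 and 13.6 to at most 1.97 and *ac* from 29.3, 5.43 and 10.8 to at most 2.21. Both were higher again in the last cluster, where *l(1)sc* averaged 65.9 and *ac* 27.5. *amos*, the remaining proneural gene that fell, overlapped between the clusters.

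Those genes belonged to a small class. Of the 1190 genes that fell, 1176 averaged more than 1 normalized count in the 10 earliest embryos and are called maternal here, and 14 did not. Of the 14, 11 had a single exon, 8 lay on the X chromosome and 10 had their highest cluster mean in cluster 4. Over all 1323 genes that were not maternal, 200 were X-linked and 16.9% had 1 exon. The median gene span of the 14 was 950 bases, against 3270 over all genes not maternal. They were *sc*, *l(1)sc*, *ac*, *amos*, *scw*, *zen2*, *nullo*, *fd19B* and 6 genes known mainly by number, namely *CG13000*, *CG18269*, *CG13716*, *CG32813*, *CG1271* and *asRNA:CR45466*. *nullo*, an X-linked gene that stabilizes furrow membranes in early cellularization, went from 37.1, 28.7 and 43.7 to between 3.93 and 18.04 (-1.67 ± 0.30).

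**Figure D3:**
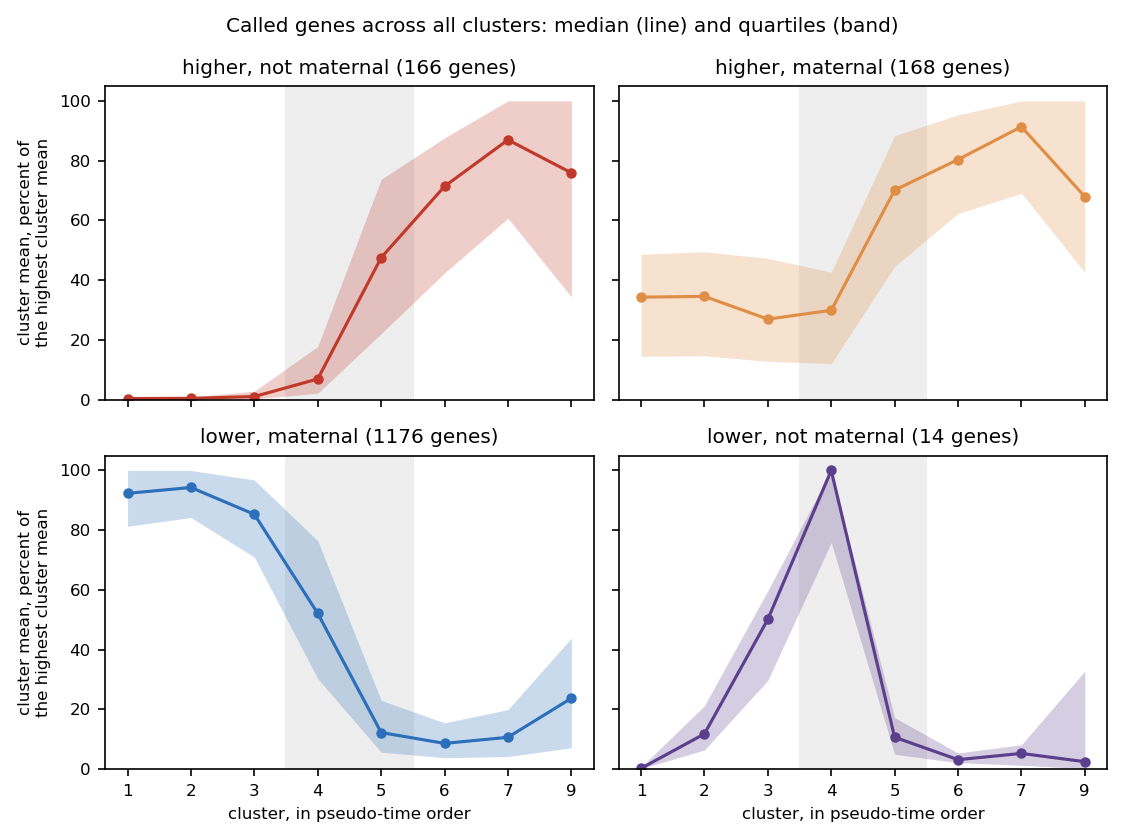
Means of the called genes in every cluster, as percent of the highest cluster mean of each gene, with the median over genes as a line, the quartiles as a band and clusters 4 and 5 shaded. Genes that rose and were not maternal went from a median of 6.89% of their peak to 47.5% and on to 87.0% in cluster 7, maternal genes that fell went from 52.1% to 12.2%, and the 14 other genes that fell went from 100% to 10.7%.

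Of 19 cellularization genes 7 rose (36.8%, against 4.38% of all genes), and *nullo* was the 1 that fell (5.26%, against 15.6%). *slam*, which guides membrane growth at the furrow canal (2L, 6372388 to 6377284, plus strand), went from 121, 114 and 157 to between 329 and 502, a log2 fold change of 1.89 ± 0.21. It was at 0.50 in the last cluster, below its level in either cluster. *Z600*, a small inhibitor of mitosis, changed from 79.8, 142 and 318 to between 421 and 742 (1.79 ± 0.32), and *Nrt*, a cell surface adhesion protein, from 77.8, 88.9 and 163 to between 291 and 487. *kuk*, a nuclear envelope protein needed for nuclear elongation, rose by 1.20. *halo*, *bard* and *trbl* rose by 1.26, 1.01 and 1.13, with overlap between clusters, and *bard* lost the call in 15 of 27 other settings. Without the first or the second embryo of cluster 4, 4 of the 19 rose in each case, and without the third 9 rose and 2 fell.

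The most abundant genes that rose without overlap were *retn*, *Z600*, *Bacc*, *kuk* and *Ppa*. *retn*, an ARID-domain transcription factor, was at 203, 227 and 290 and then at 416 to 681 (1.37 ± 0.23). *Ppa*, an F-box protein, was at 81.8, 99.0 and 245 and then at 425 to 644 (2.02 ± 0.29). *Bacc* rose by 1.26. *Z600* and *Ppa* were close to 1 normalized count in the 10 earliest embryos, while *retn*, *Bacc* and *kuk* were above 100 there.

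Genes of epithelia and cell contact rose without any fall. Of 30 adhesion and junction genes 9 rose, of 20 axon guidance genes 8, of 15 gastrulation and Toll receptor genes 6 and of 21 Notch pathway genes 5. These are shares of 30%, 40%, 40% and 23.8% higher, against 4.38% of all genes, and 0 lower, against 15.6%. Of the genes tested, 23, 6, 10 and 7 in the same order averaged more than 1 normalized count in the 10 earliest embryos. Genes above that level made up 1176 of the 1190 falls. *shg*, the fly E-cadherin, went from 26.4, 26.4 and 37.99 to between 59.2 and 103 (1.49 ± 0.21), and the gap junction genes *Inx2* and *Inx3* rose by 1.16 and 2.39. *Tollo* and *18w*, Toll family receptors that orient cell intercalation during axis extension, rose by 2.69 and 4.76, the second from 2 UMIs in all of cluster 4. *pbl*, a gene needed for cytokinesis and mesoderm spreading, went from 27.3, 25.2 and 30.8 to between 80.5 and 156. In the Notch pathway the ubiquitin ligase *neur* rose by 1.61 and the membrane protein gene *bib* from 11.6, 20.6 and 22.2 to between 84.8 and 139 (2.81 ± 0.24). The apical constriction genes *fog* and *T48* were not called, at -0.62 ± 0.20 and -2.14 ± 0.84. *sli* and its receptor *robo1* rose by 2.95 and 2.56, *comm* by 3.60 and *Dscam1* by 2.66, *Dscam1* with overlap. Leaving out the first or the second embryo of cluster 4 left 4 axon guidance, 3 Notch pathway, 6 adhesion and junction and 5 gastrulation and Toll receptor genes. Without the third, 8, 5, 8 and 7 rose and 1 axon guidance gene fell.

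In the EGF receptor pathway, which is used again and again to pattern epithelia, 5 of 21 genes rose (23.8%, against 4.38% of all genes) and 2 fell (9.52%, against 15.6%). The 5 became 3 without the second embryo of cluster 4, on library totals and under limma. *spi*, the main ligand (2L, 19567900 to 19577315, minus strand), stood at 10.1, 8.93 and 10.0 in cluster 4 and at 36.1 to 77.9 in cluster 5 (2.75 ± 0.24, adjusted p = 8.57e-09). It had been at 37.6 in cluster 1 and reached 371 in the last cluster. The receptor *Egfr* rose by 1.31, while the transcriptional repressor *aop* fell by 1.46 and the kinase *Dsor1* by 1.49. *rau*, which carries Ras-association domains and acts downstream of receptor tyrosine kinases, had no UMI in any embryo of cluster 4 and between 0.83 and 6.27 normalized counts in cluster 5. Measured against 3 counts over the 3 embryos of cluster 4 together, that is at least 7.49-fold higher.

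Ecdysteroid enzymes included *dib*, the gene with the largest fitted rise among called genes without overlap, a fit that for a gene at 0 UMIs depends on the prior count. The Halloween genes encode enzymes that turn sterols into ecdysone. Of the 9 ecdysteroid genes tested 4 rose (44.4%, against 4.38% of all genes), all of them Halloween enzymes. Another 1 fell (11.1%, against 15.6%). *dib*, a P450 hydroxylase (3L, 4062292 to 4064551, plus strand), had 0 UMIs in all 3 embryos of cluster 4 and between 2.48 and 11.3 normalized counts in cluster 5, with a median of 5.08, at least 15.0-fold higher. *sro*, a short-chain dehydrogenase, also had 0 UMIs before and between 0.60 and 1.80 after, at least 3.03-fold higher. *spo* rose by 1.61 and *phm*, from 3 UMIs, by a ratio of 8.03 per UMI sequenced (95% interval 2.65 to 39.7). *usp*, which encodes a subunit of the ecdysone receptor, fell from 61.2, 52.4 and 15.8 to between 4.59 and 10.7 (-2.62 ± 0.26). Without the first embryo of cluster 4, and with females alone, 2 of the list rose.

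Other genes with 0 UMIs in cluster 4 were few. Of the 334 genes that rose 15 were not seen in any of the 3 embryos, among them *mfas*, a fasciclin-type adhesion protein (between 0.41 and 4.18 in cluster 5, at least 6.03-fold higher), *CG13894* (at least 4.53-fold), *tup*, a LIM-homeodomain factor of dorsal tissue (at least 2.13-fold), and *Cad74A*, a cadherin (at least 2.98-fold). *tup* and *Cad74A* lost the call in 16 and 17 of 27 other settings. *corn* went from 5 UMIs to between 7.33 and 33.03 normalized counts.

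The cut at 1 normalized count in the 10 earliest embryos split the genes that rose into 2 groups of nearly equal size. Of the 334, 166 were not maternal and 168 were. The second group includes genes just above the cut, such as *Ppa* at 1.06, *Z600* at 1.10, *pdm2* at 1.105 and *srp* at 1.26. The even split therefore depends on where the cut lies. The group that was not maternal rose by a median of 2.68 on the log2 scale and the maternal group by 1.31. In cluster 6, 271 of the 334 (81.1%) were higher than in cluster 5, against 46.7% of all genes. The highest cluster mean fell in cluster 5 for 41, cluster 6 for 47, cluster 7 for 120 and the last cluster for 115, and before cluster 4 for the other 11. Their median span was 4538 bases, against 2830 over all genes and 3899 for genes that fell, and 14.4% had a single exon, against 9.84% and 5.71%.

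Some maternal genes that rose had first been lost. In 35 of the 168 the mean in cluster 4 was at most 0.5 of that in cluster 1, and 26 were still below cluster 1 in cluster 5. The Polycomb group, which keeps developmental genes silent, gave examples: *E(z)*, its histone methyltransferase, averaged 33.9 in cluster 1, 1.24 in cluster 4 and 4.83 in cluster 5, and *Pc*, which binds the mark, 21.5, 1.67 and 8.10. *calypso*, a deubiquitinase of the same group, averaged 39.0, 1.73 and 7.70. By embryo, *Pc* was at 2.03, 1.55 and 1.43 in cluster 4 and at 3.59 to 14.0 in cluster 5 (2.41 ± 0.44), and *E(z)* at 1.45, 1.55 and 0.72 and then 1.69 to 9.83 (1.98 ± 0.52). *E(z)* lost its call in 8 of 27 other settings. Of 29 Polycomb and Trithorax group genes 7 rose (24.1%, against 4.38% of all genes) and 3 fell (10.3%, against 15.6%). Those that fell were *esc*, *phol* and *Scm*, by 2.08, 2.33 and 1.15.

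Splicing and autophagy genes were called higher in 25% and 27.3% of cases, against 4.38% of all genes, and lower in 5% and 9.09%, against 15.6%. Of 20 splicing genes 5 rose and 1, *tra2*, fell by 1.71. Autophagy genes rose in 6 of 22 cases and fell in 2 (0 without the first embryo of cluster 4, 1 without the second and 3 without the third), with *Atg101* at 1.80 and *Atg18a* at 1.41 on the log2 scale. *CycT*, a subunit of the kinase that releases paused RNA polymerase II, went from 50.8, 53.6 and 69.5 to between 213 and 314 (2.36 ± 0.22). Nucleoporin genes rose in 3 of 23 cases (13%), none of them on library totals. Of 112 long noncoding RNA genes 11 rose (9.82%) and 2 fell (1.79%). Without the first or without the second embryo of cluster 4, 5 rose and 1 fell. *HmgZ*, a high-mobility-group chromatin protein, changed from 5 UMIs to between 7.18 and 31.8 normalized counts.

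Germ plasm genes fell in 10 of 14 cases and rose in none, with a median of -1.65, against 15.6% lower over all genes. Germ plasm is the posterior cytoplasm whose RNAs are kept in the pole cells and cleared elsewhere. *zpg*, a germline gap junction gene (3L, 6604366 to 6606032, minus strand), was at 125, 120 and 36.6 in cluster 4 and between 4.59 and 22.3 in cluster 5, a log2 fold change of -2.67 ± 0.27. The list also holds *CycB*, *Hsp83* and *bru1*, which other lists share. *vas*, *piwi*, *gcl*, *pgc*, *ovo* and *del* fell by 2.56, 2.01, 2.04, 1.32, 2.55 and 1.88. *nos*, the posterior determinant, was at 6.38, 4.27 and 0.72 and then at a median of 1.65, which was not called (-1.28 ± 0.47, adjusted p = 0.0289). All 10 had been higher in the 10 earliest embryos than in cluster 5.

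Egg activation and translational control genes fell in 8 of 20 cases (40%) and oogenesis genes in 7 of 19 (36.8%), against 15.6% of all genes. Neither list had a rise, against 4.38% of all genes. *smg*, the RNA-binding protein that directs much of maternal clearance, went from 263, 248 and 156 to between 51.9 and 180 (-1.13 ± 0.26), with overlap. The deadenylase subunits *twin* and *Pop2* fell by 1.50 and 1.01, the repressors *bru1*, *orb* and *Fmr1* by 2.63, 2.27 and 2.14, and *gnu*, an activator of the PNG kinase, by 2.82. *yl*, the yolk receptor of the oocyte, went from 26.4, 22.1 and 12.9 to at most 3.93 (-3.003 ± 0.306). *egl* and *BicD*, partners in RNA transport along microtubules, fell by 2.45 and 1.21. *dhd*, a female germline thioredoxin, had been at 673 in the 10 earliest embryos and fell from 29.01, 28.3 and 15.8 to between 4.51 and 11.7.

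Maternal patterning determinants fell in 6 of 21 cases (28.6%, against 15.6% of all genes). *bcd*, the anterior morphogen, was at 39.5, 24.5 and 17.2 and then between 0 and 7.43 (-3.49 ± 0.41), and *swa*, needed to localize *bcd* RNA, at 291, 310 and 237 and then between 24.7 and 78.4 (-2.45 ± 0.22). From the Toll pathway, *spz*, *pll* and *tub* fell by 2.39, 2.65 and 1.97, while *cact*, its inhibitor, was at 0.89 ± 0.15 without overlap and below the fold threshold. *dl* was at a median of 0.60 against 1.74, 3.11 and 2.15 (-1.47 ± 0.58, adjusted p = 0.0421) and *cad* at -0.80 ± 0.18. Among pioneer and activating factors *grh*, *opa*, *D* and *tll* rose, and *zld*, the main early activator, was at 263, 286 and 553 before and between 336 and 614 after (0.49 ± 0.25, adjusted p = 0.116).

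Cell cycle genes fell in 12 of 25 cases (48%, against 15.6% of all genes). *CycB* (2R, 22803521 to 22806948, minus strand) went from 538, 553 and 376 to between 120 and 232, and *CycA* from 450, 402 and 212 to between 103 and 167, by 1.43 ± 0.16 and 1.20 ± 0.16 downward on the log2 scale. *stg*, the Cdc25 phosphatase whose RNA permits mitosis, was at 253, 356 and 223 before and between 24.2 and 131 after (-1.65 ± 0.25), and averaged 449 in the last cluster. The checkpoint kinases *grp* and *lok* fell by 1.69 and 1.51, the inhibitory kinases *Wee1* and *Myt1* by 1.21 and 2.44, and *fzr* by 1.90. *CycD* and the Cdk inhibitor *dap* fell by 1.21 and 1.34. *Z600*, *trbl* and *CycT* rose, 12% of the list against 4.38% of all genes. Of these, *Z600* and *trbl* encode proteins that restrain mitosis. The median of the list was -1.06. DNA replication genes fell in 4 of 21 cases (19%, near the 15.6% of all genes), led by *Orc1* at -1.97 ± 0.18, and 2 fell without the first or without the second embryo of cluster 4.

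The other abundant falls were *Vha55*, a proton pump subunit, *tws*, a regulatory subunit of phosphatase 2A, and *lost*. *tws* was at 493, 535 and 318 and then at 64.8 to 187, by -1.76 ± 0.21. Heat shock genes fell in 4 of 8 cases (50%, against 15.6% of all genes). *Hsp27* went from 142, 162 and 108 to between 5.43 and 26.8 (-3.04 ± 0.26), and *Hsp60A*, *Hsp83* and *Hsp26* fell by 2.47, 1.22 and 1.17. *BigH1*, the embryonic linker histone, fell by 1.89. The large falls among less abundant genes included *Bmcp*, a mitochondrial carrier, *Mnn1*, the fly menin, and the unnamed *CG32795*, *CG33172*, *CG12024* and *CG9896*, by 3.76 to 4.15 on the log2 scale. *Mnn1* went from 46.4, 41.1 and 16.5 to at most 3.95. *Ntmt*, a methyltransferase of protein N-termini, had 7 UMIs in cluster 4 and 0 in all 9 embryos of cluster 5, at least 7.43-fold lower against 3 counts over those 9.

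Levels after the fall varied. Of the 1190, 873 were lower still in cluster 6, but 797 were higher in the last cluster than in cluster 5 and 283 higher there than in cluster 4. Their highest cluster mean fell before cluster 4 in 1019 genes.

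Few members of several large families were called. None of 86 cytoplasmic ribosomal protein genes was called, against 20% of all genes called in one direction or the other, and their median was 0.32. *RpL3* was at 824, 973 and 1130 before and between 489 and 1180 after (0.07 ± 0.25, adjusted p = 0.832). Of 61 oxidative phosphorylation genes 1 was called, of 33 proteasome genes 1, of 35 translation initiation factors 2 and of 72 mitochondrial ribosomal protein genes 3. The last 3 all fell, and none fell without the first or without the second embryo of cluster 4, while 5 fell without the third. The 1 proteasome gene and the 2 initiation factors that fell became 0 and 1 without the first or without the second embryo, and 3 each without the third. The 1 oxidative phosphorylation gene, which rose, became 2 without the first and 0 without the third.

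**Figure D4:**
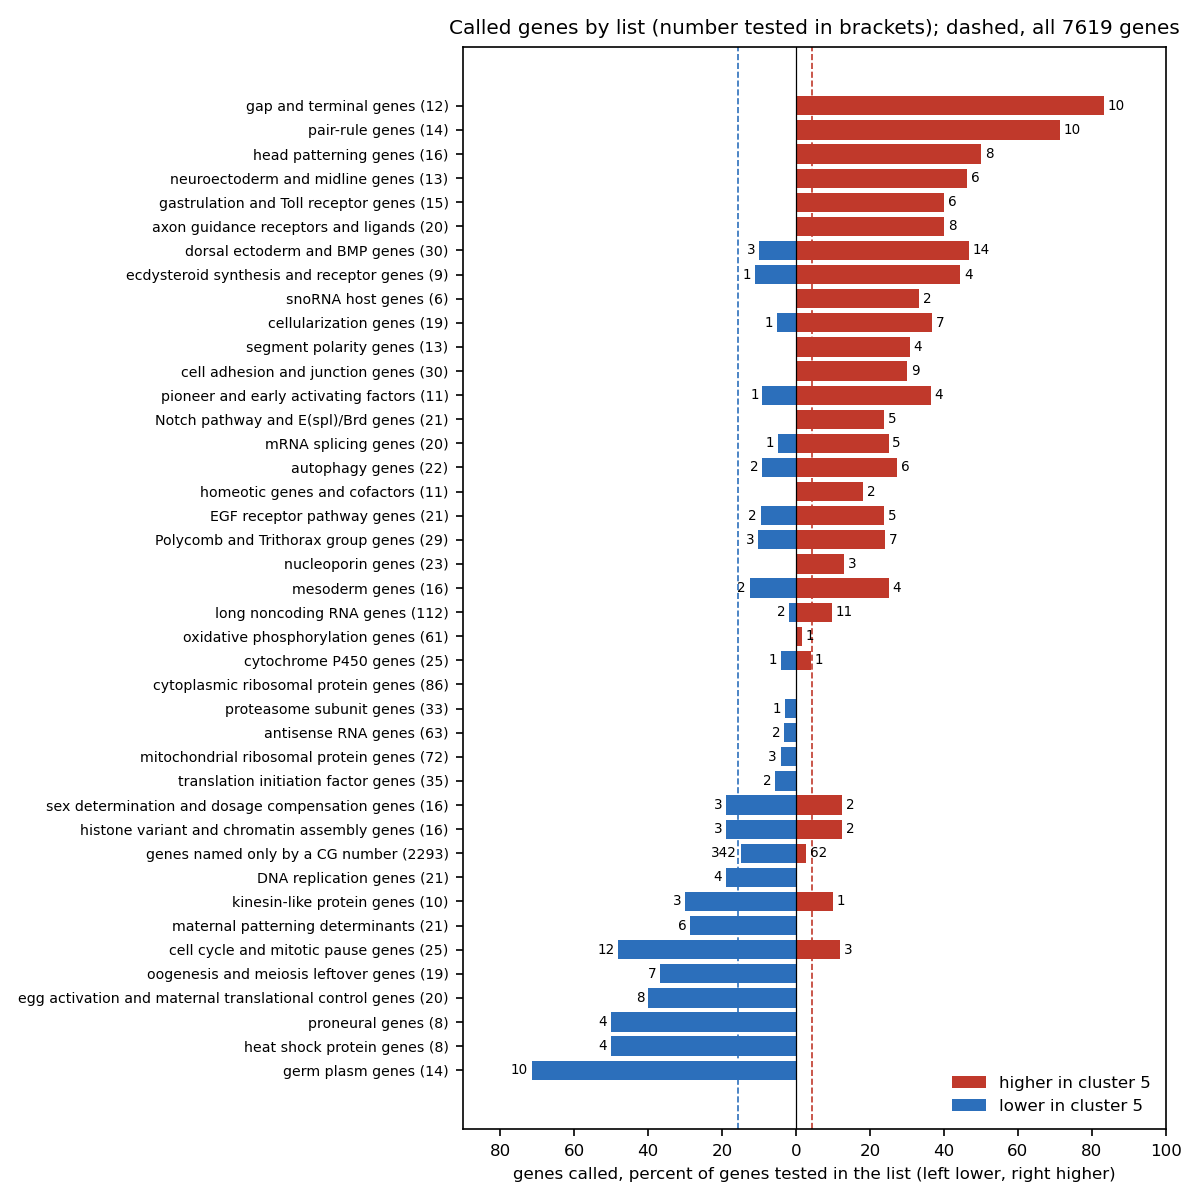
Share of the genes tested in each list that were called lower (left, blue) or higher (right, red) in cluster 5, with the number called beside each bar, the number tested in brackets and dashed lines for all 7619 genes at 15.6% and 4.38%. Gap and pair-rule genes lie farthest to the right with 10 called each, and germ plasm genes farthest to the left with 10 called.

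Genes on the X chromosome fell more often and rose less often than autosomal genes, as counts without a test. Of 1334 X-linked genes 19.8% fell and 2.25% rose, against 14.8% and 4.81% of 6255 autosomal genes, and the median log2 fold change was -0.21 on the X and 0.08 on the autosomes. X-linked genes took 19.2% ± 0.26 (SD, n = 3) of the UMIs in cluster 4 and 17.7% ± 0.42 (n = 9) in cluster 5. The 3 embryos of cluster 4 lay between 18.9% and 19.3% and the 9 of cluster 5 between 17.1% and 18.4%, without overlap (exact permutation test, two-sided, p = 0.00455, the smallest this design allows, 0.00682 after adjustment over 3 shares). Both sexes of cluster 5 were below cluster 4, females at 17.5% to 18.4% and males at 17.1% to 18.2%. With females alone, 15.4% of X-linked genes fell against 11.0% of autosomal genes, and with sex as a covariate 19.3% against 14.9%. The UMI totals of all females of cluster 5 matched the second library. Those of the females of cluster 4 matched the first library or no single barcode. The fit of females alone therefore held sex fixed but not library. Clusters 1 to 3 averaged between 18.8% and 19.2%, and clusters 6, 7 and the last between 16.7% and 17.03%. The part of sex and library in this difference was not tested beyond these values.

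**Figure D5:**
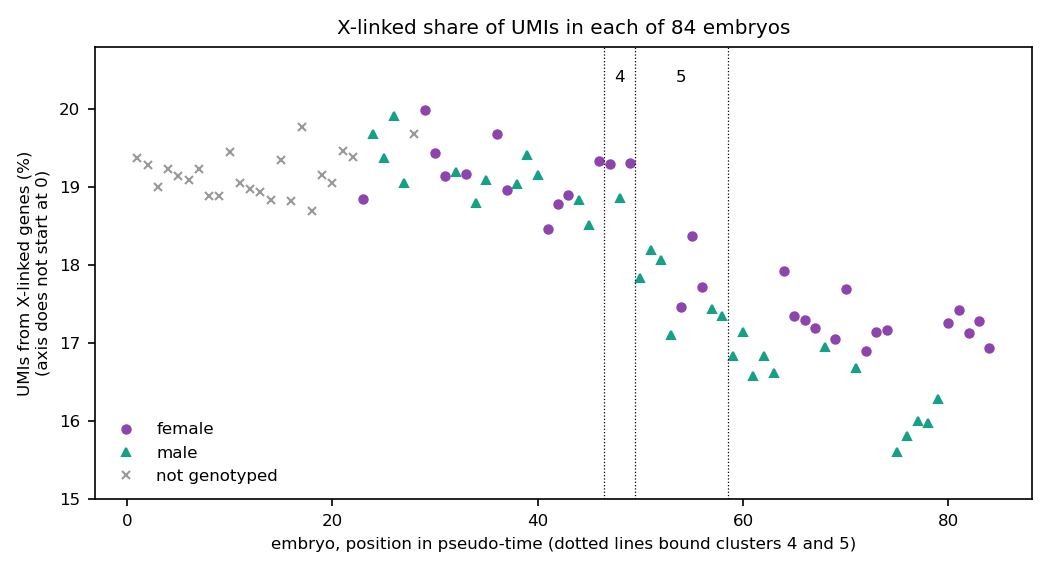
Percent of UMIs from X-linked genes in each of the 84 embryos by position in pseudo-time, with females as circles, males as triangles, embryos without a genotype as crosses and dotted lines around clusters 4 and 5. The share lay at 18.9% to 19.3% in cluster 4 and at 17.1% to 18.4% in cluster 5, and the vertical axis does not start at 0.

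Genes that were not maternal took 1.58% ± 0.40 of the UMIs in cluster 4 and 3.46% ± 0.47 in cluster 5, again without overlap (1.34% to 2.04% against 2.74% to 4.03%, exact p = 0.00455, adjusted 0.00682). The clusters, their order and this gene set were all defined from the same expression values. That p-value is therefore no independent test of the rise. Since the clusters came from the same expression values, the p-value for the X share is no independent test either. RNA of the mitochondrial genome did not separate the clusters, at 3.23% ± 0.65 and 3.42% ± 1.10 (exact p = 0.75).

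*Sxl* separated the genotyped sexes within each cluster and *msl-2* did not. *Sxl*, the switch gene of female development, was at 132 and 354 in the 2 females and 16.3 in the male of cluster 4, and at 505 to 665 in the 3 females and 15.2 to 35.4 in the 6 males of cluster 5. *msl-2*, which encodes the male-limiting subunit of the dosage compensation complex, rose from 6.09, 5.04 and 12.9 to between 12.4 and 50.3 (2.13 ± 0.33), with the females of cluster 5, at 22.5 to 28.03, inside the range of its males, at 12.4 to 50.3. The complex member *msl-3* fell by 1.10. The noncoding *lncRNA:roX1* was at 133, 88.5 and 391 and then at 209 to 944, which was not called (1.23 ± 0.47, adjusted p = 0.0358), and in cluster 5 its 3 females, at 589 to 944, were above its 6 males, at 209 to 493. The difference between the sexes was not tested, since the total of each of those 3 females matched a barcode of library 2.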

How the data were processed

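Single embryos were profiled by CEL-Seq2 in 2 libraries. The authors deposited raw UMI counts per gene and barcode, made with STARsolo (STAR 2.7.8a per the labels), and a normalized table of 84 embryos and 7629 genes. In that table each deposited value is a normalized count (a signal, never negative): the UMI count divided by the embryo's total, multiplied by the smallest total (274491) and increased by 0.1. The 0.1 was subtracted and each value divided by the embryo's step, which gave whole UMI counts for 100% of values within 0.0001. These counts, kept for 7619 genes that reached 3 counts in 5 or more of the 84 embryos, were fitted with edgeR's quasi-likelihood test (TMM factors, 12 embryos, no covariate), which departs from the unit of the table but uses its own counts. A gene was called at an adjusted p under 0.01 with a fold change of more than 2 in either direction.

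Cluster, order and sex came from the paper's supplementary tables, and cage and interval from embryo names. The last cluster, numbered 8 in one of these tables, is called 9. Barcodes were not assigned to embryos. Each embryo was 1 replicate. Where a cluster had 0 UMIs, folds are bounds against 3 counts over that cluster; ratios from 1 to 3 UMIs carry exact 95% intervals for pooled counts. Intervals and floors cover counting error only. Coordinates come from Ensembl gene models on assembly release 6, matched by symbol for 7513 genes and by synonym for 103. Genomic sequence was not used here.

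Named genes were, among called genes without overlap, the 10 of largest fold and the 5 most abundant in each direction, every called member of 28 lists (in lists with fewer than 2 called, up to 2 abundant members), and in families of over 20 genes matched by name the 3 of largest fold in each direction. The 14 non-maternal falling genes and *lncRNA:roX1*, *zld*, *wg*, *en*, *cad*, *cact*, *nos*, *dl*, *Antp*, *zen*, *fog*, *T48* and *Sxl* were added after their values were seen. The comparison, its members and all lists were chosen with earlier results of these data known. Lists hold overlapping genes and are described by counts, not tested. Some members counted in the lists are not reported here by name. Alternatives were DESeq2, other scalings and filters, covariates, limma, thinning, other thresholds and leaving out each embryo; females alone and cage A alone were chosen after seeing the data. On data simulated for this comparison with 7619 genes, edgeR recovered 90% of 100 genes changed 4-fold and 87% of 100 changed 3-fold, with 2 false calls. The changed genes had an expected count of at least 5 at median depth, with as many rises as falls. Recovery of scarcer genes, and false calls where many more genes change and most fall, were not measured. Software was R 4.3.3 with limma 3.58.1, DESeq2 1.42.0 and edgeR 4.0.16, and Python 3.11.15 with scipy 1.17.1, pandas 2.3.3, numpy 2.4.6 and matplotlib 3.10.9.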

Additional observations from a re-analysis of the deposited data

Results flagged for a closer look

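Among 30 genes with the largest or most abundant changes and 3 shares of UMIs, 1 had an embryo of cluster 5 that stood apart from the other 8 by Dixon's test, which chance does in about 1 of 20 groups. *Dad*, an inhibitory Smad, was at 0.281 normalized counts in the female X3A.25 and at 0.13 in the next embryo, with the other 7 at 0. Both values rest on 1 UMI each.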

How the results depend on the processing

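Counts of calls kept their direction in every alternative. Moved by more than 1.5 times were the genes that rose under limma, 199 with a pseudocount of 1 and 200 with 0.1, and at an adjusted p below 0.1, 584, and the genes that fell under limma with 0.1, 623. DESeq2 gave 260 higher, all among the 334, and 1273 lower, 1141 of them shared. Leaving out 1 embryo of cluster 4 gave 262 to 346 higher and 801 to 1323 lower, and 1 of cluster 5 gave 311 to 400 and 1121 to 1188. Females alone, whose clusters shared no matched library, gave 358 and 898, and cage A alone gave 367 and 1176. Of 244 named genes called, 130 kept the call in all 27 alternative fits and none changed sign. The log2 fold change of RpL3, not called, was 0.07 and turned to -0.028 with DESeq2 and with median-of-ratios factors, -0.086 with library totals, -0.036 with cage, -0.067 with cage and sex, -0.12 with either limma fit, -0.042 in cage A and -0.097 in females, and ran from -0.063 to 0.245 with 1 embryo left out, and the cause was not tested. No paired analysis was possible because the replicate numbers of the labels number 2 libraries of 1 group. Counts in single digits limit genes near 0, and 3 embryos limit cluster 4.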
